A study of Mus musculus with 109 samples.

Results

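The genes described here were 47 genes of mitosis, the kinetochore and condensin, taken as a list of names and looked up in the table of raw counts per cell. All 47 were found among the 15973 genes listed, and 109 cells were covered. The cells were prepared from cerebella of untreated C57BL/6 mice at postnatal day 7 (P7) as granule cell progenitors (GCPs) by Percoll density gradient centrifugation. The methods of the study name only ICR pups and give no strain for the sequenced cells. Single cells were caught with the C1 system of Fluidigm and sequenced by Smart-seq, 1 library per cell. The sample titles placed the cells in 6 library groups, and the sources used here do not say which animals stood behind each group. Cells were divided only by doublecortin (Dcx), a microtubule protein of young neurons. The 21 cells under 50 CPM (counts per 1000000 counts of a cell) were called Dcx-low, the 78 cells at 200 CPM or more Dcx-high, and the 10 cells between them Dcx-middle. The Dcx-low cell nearest the threshold had 48.5 CPM and the next cell 50.5 CPM. The lowest Dcx-high cell had 208 CPM and the next cell below it 191 CPM. Dcx itself was not tested, because it defined the classes.

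The proteins of these genes act when a cell divides. Cyclin-dependent kinase 1 with cyclins A and B drives entry into mitosis, condensin folds the chromosomes, the kinetochore ties the centromere of each chromosome to the spindle, and the checkpoint holds back the anaphase-promoting complex until every chromosome is attached. Afterwards separase cuts the cohesin ring and the midzone proteins guide cytokinesis. In the postnatal cerebellum GCPs divide in the outer external granule layer, and their daughters leave the cycle and turn on Dcx as they become granule cells (GCs).

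Markers were read against the label of the preparation. Neurod1, a transcription factor of the granule lineage, was at 10 CPM or more in 18 of 21 Dcx-low, 10 of 10 Dcx-middle and 77 of 78 Dcx-high cells. Of the other 5 granule lineage genes, Zic1, Pax6 and Meis1 were at that level in 15 to 17 Dcx-low and 61 to 72 Dcx-high cells, but Zic2 (9, 3 and 34 cells) and Barhl1 (6, 2 and 26 cells) in fewer than 1 in 2 cells of each class. The 5 GCP markers were divided. Ccnd2, a cyclin of cycling GCPs, was present in 17, 10 and 59 cells, Sfrp1 in 13, 6 and 35 and Pcna, a replication factor, in 13, 5 and 29. Atoh1, the factor that defines GCPs, was present in 1, 1 and 9 cells, and Gli1, a target of Sonic hedgehog, in 3, 2 and 3. Of the GC markers beside Dcx, Sema6a was present in 19, 9 and 75 cells and Tubb3 in 15, 8 and 66. Rbfox3 was present in 11, 5 and 49 cells and Cntn2 in 7, 4 and 58. Dcx-low cells were therefore low in Dcx but not free of GC markers. Total counts per cell ran from 15071 to 8616017, with a median of 3604792, and the medians of Dcx-low and Dcx-high cells were 4141003 and 3534565. There were 3 cells of unusual depth, all Dcx-high: 1 with 15071 counts, in which a single count already exceeds 10 CPM, and 2 with 13533 and 12684 genes detected. A further check found 5 cells, 1 Dcx-low and 4 Dcx-high, with at least 5 of 8 astroglial genes at 50 CPM or more, and both cells with many genes were among them. At least 4 of 6 oligodendrocyte lineage genes were at 10 CPM in 4 cells, namely these 2 Dcx-high cells and 2 Dcx-low cells of library groups 3 and 4. The 2 Dcx-low cells had summed levels of these genes of 12229 and 7140 CPM, 1 of 6 granule lineage genes and 3 members each. Results are given with and without these cells where they matter, except in the Notch2 comparison. Of 6 genes of other cerebellar neurons, Gad1 was at 10 CPM in 0 Dcx-low and 14 Dcx-high cells and Eomes in 2 and 17. Pax2, Gad2, Slc32a1 and Calb1 were in 0 Dcx-low and at most 8 Dcx-high cells. In the comparison below 3 of these genes were tested, all lower in Dcx-low cells (median log2 fold change -8.01), and 0 were called. No cells were left out for these genes, and their part in the comparison was not tested.

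The promoters showed what the members share in sequence. They are printed because the cell cycle homology region (CHR), read here as the letters TTTGAA, and the CCAAT box bound by NF-Y are known elements of genes that peak in G2 and mitosis. RefSeq promoter windows on GRCm38.p6, from 250 bases before to 50 bases after the annotated start, were at hand for 40 of the 47 members. TTTGAA lay on either strand in 28 of these 40 (70.0%), against 20.2% of all 27025 genes with such a window. CCAAT lay in 31 members (77.5%), against 41.1% of all genes, and 26 members (65.0%) had both in the same window, against 7.97% of all genes. TTTAAA, the other spelling of the CHR, lay in 10 members, against 14.9%. Sites of the E2F factors, which are known for genes of the G1/S step, were found in few members. TTCCCGC was found in 2 members (Cenpk and Ncapg; 5.0%), against 5.29% of all genes. TTTGGCGC in Ncapd2, TTTCGCGC in Cdk1 and TTTCCCGC in Ncapg each occurred in 1 member (2.5%), against 0.585%, 0.374% and 1.24% of all genes. TTTAAA reads the same on both strands, and TTTCCCGC contains TTCCCGC. The members with neither form of the CHR nor CCAAT were Mad2l1, Ncaph, Nuf2, Nusap1, Pttg1 and Tacc3. These matches describe letters in the windows, not bound sites.

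In the members the matches sat close to the start. Of 39 TTTGAA matches in member windows, 28 (71.8%) had their centre within 50 bases of the start. The median position was -15, where negative positions lie before the start. Matches were counted over 45 windows of the 40 members. Where windows of a member overlap, as in Prc1 (-27 and -2), the same site was counted more than once. Of 6698 matches in windows of other genes, 1741 did so, and the median was -122. The promoters printed here are, for 5 roles, those of the members at 10 CPM in the most cells, among members with a window. Each run is 5′ to 3′ on the strand of the gene, from 150 bases before to 50 bases after the start, and capitals mark TTTGAA and CCAAT in either direction (TTCAAA and ATTGG are their reverse complements).
Cdk1 promoter, chr10:69352863-69353062, minus strand: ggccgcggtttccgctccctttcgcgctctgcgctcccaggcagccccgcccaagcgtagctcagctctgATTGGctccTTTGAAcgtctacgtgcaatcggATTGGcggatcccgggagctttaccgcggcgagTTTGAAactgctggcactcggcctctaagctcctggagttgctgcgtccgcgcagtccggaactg
Ube2c promoter, chr2:164769779-164769978, plus strand: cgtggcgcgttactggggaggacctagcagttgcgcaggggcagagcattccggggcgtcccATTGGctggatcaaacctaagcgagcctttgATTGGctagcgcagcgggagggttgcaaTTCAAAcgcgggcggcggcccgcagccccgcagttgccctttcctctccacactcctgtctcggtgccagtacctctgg
Cenpf promoter, chr1:189688037-189688236, minus strand: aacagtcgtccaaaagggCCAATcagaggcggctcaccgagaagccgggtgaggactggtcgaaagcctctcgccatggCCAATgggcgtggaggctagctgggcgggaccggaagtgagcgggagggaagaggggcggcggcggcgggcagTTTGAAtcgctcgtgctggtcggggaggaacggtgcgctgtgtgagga
Prc1 promoter, chr7:80294301-80294500, plus strand: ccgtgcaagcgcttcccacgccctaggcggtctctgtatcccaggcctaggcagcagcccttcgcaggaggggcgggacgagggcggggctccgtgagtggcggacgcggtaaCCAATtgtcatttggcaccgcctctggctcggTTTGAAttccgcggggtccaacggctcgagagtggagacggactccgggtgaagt
Top2a promoter, chr11:99024140-99024339, minus strand: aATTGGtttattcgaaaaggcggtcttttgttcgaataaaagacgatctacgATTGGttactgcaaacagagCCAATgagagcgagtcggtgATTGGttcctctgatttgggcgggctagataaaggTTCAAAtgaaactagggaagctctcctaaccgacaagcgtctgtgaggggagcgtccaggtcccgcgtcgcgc
In Cdk1 the 2 TTTGAA matches were centred at -68 and -12, and in Ube2c, the E2 enzyme of the anaphase-promoting complex, the only one was at -26. Cenpf, a large kinetochore protein, had its match at 5 bases after the start and Prc1 in the window shown at -2. Top2a, the topoisomerase that untangles chromosomes, had 1 match at -20 and another at -176, before the stretch printed. Each of these windows had at least 1 CCAAT box farther upstream. For Prc1 the table held another window as well, and the first was used.

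**Figure D1:**
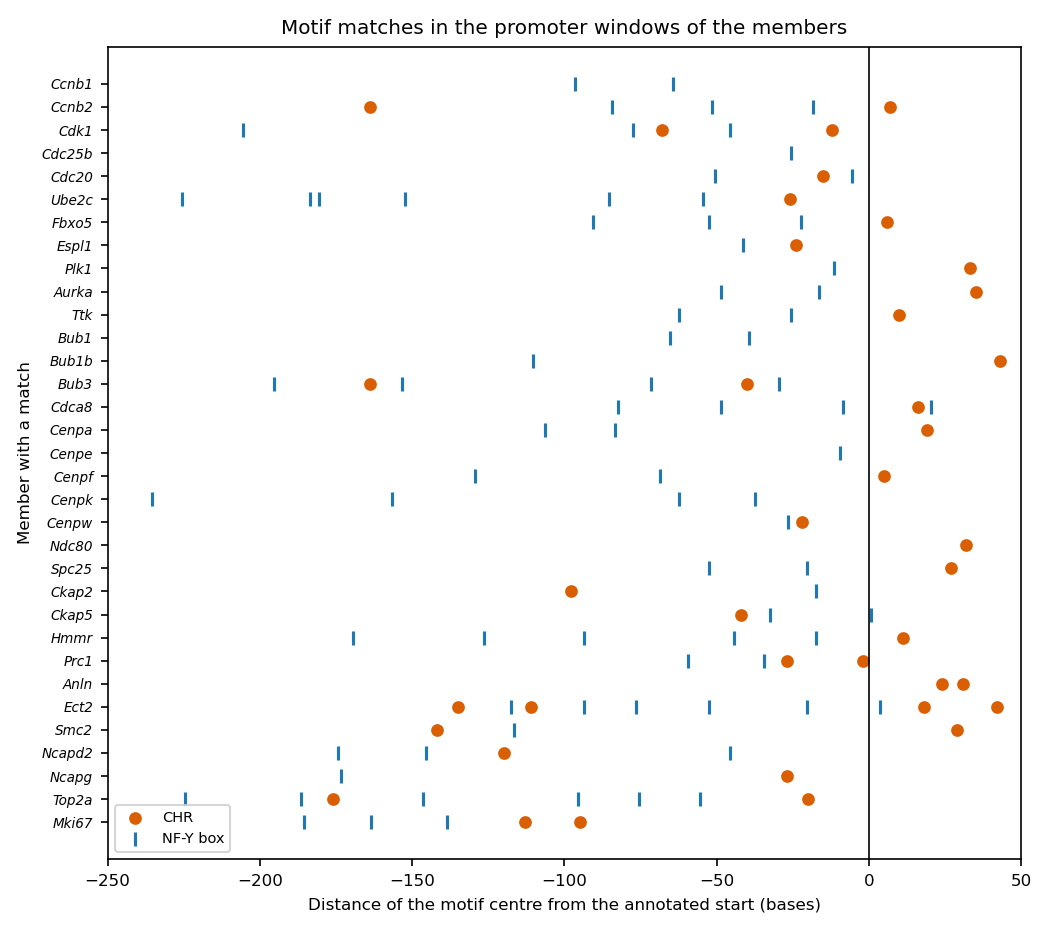
Position of motif matches in the 300-base promoter windows of the members that held any. A member with overlapping windows can show the same site more than once. The horizontal axis is the distance of the centre of a match from the annotated start in bases, orange points are CHR matches (the G form), and blue bars are NF-Y boxes (CCAAT). The CHR matches gather around the start, with a median of -15, and the NF-Y boxes lie mostly before it, with a median of -65.5.

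The members were unevenly spread over the cells. Of the 5123 values (47 genes in 109 cells), 2745 were 0 and 1111 were 1 to 4 counts. A further 278 had 5 counts or more but stayed under 10 CPM, and 999 were at 10 CPM or more, which is 36 counts at the median depth. The libraries carried no molecular identifiers, so that a few counts need not be independent molecules, and 10 CPM was therefore used as the level at which a member was taken as present. The median cell had 3 of the 47 members at this level. In contrast, 15 cells (13.8%) had at least 24 of them, and these cells held 533 (53.4%) of the 999 values. Between 10 and 23 members were present in 15 cells and fewer than 10 in 79.

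Cells with many members were found in every Dcx class. Among Dcx-low cells, 16 had between 1 and 8 members and 5 had 28, 30, 33, 34 and 37, with none between, so 5 of 21 (23.8%; Wilson 95% interval 10.6 to 45.1) had at least 24. Among Dcx-middle cells the numbers were 0, 3, 3, 6, 20, 21, 29, 34, 40 and 43, so 4 of 10 (40.0%; 16.8 to 68.7) passed this mark. Among Dcx-high cells 6 of 78 (7.69%; 3.57 to 15.8) did, with 27, 32, 32, 40, 47 and 47 members. The median number of members was 6 in Dcx-low, 20.5 in Dcx-middle and 3 in Dcx-high cells. These intervals cover counting error only, and cells of a library group are not independent. Both Dcx-high cells with all 47 members were the cells with 13533 and 12684 genes detected. Without the 3 cells of unusual depth 4 of 75 Dcx-high cells had at least 24 members, and without the cells with astroglial genes 3 of 74, beside 5 of 20 Dcx-low cells. Without the cells with oligodendrocyte lineage genes the numbers were 5 of 19 Dcx-low and 4 of 76 Dcx-high cells. These exclusions were chosen after seeing the data.

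The library groups did not share 1 pattern. Dcx-low cells with at least 24 members came from library groups 1 (1 of 2 cells), 4 (2 of 5) and 5 (2 of 5), and none came from groups 2, 3 and 6 (2, 3 and 4 cells). Dcx-high cells with at least 24 members came from groups 2 (1 of 16), 3 (3 of 14), 5 (1 of 11) and 6 (1 of 13), and none came from groups 1 and 4 (12 cells each). In library group 4 the Dcx-high cells had at most 3 members, and in library group 3 the Dcx-low cells had at most 3.

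**Figure D2:**
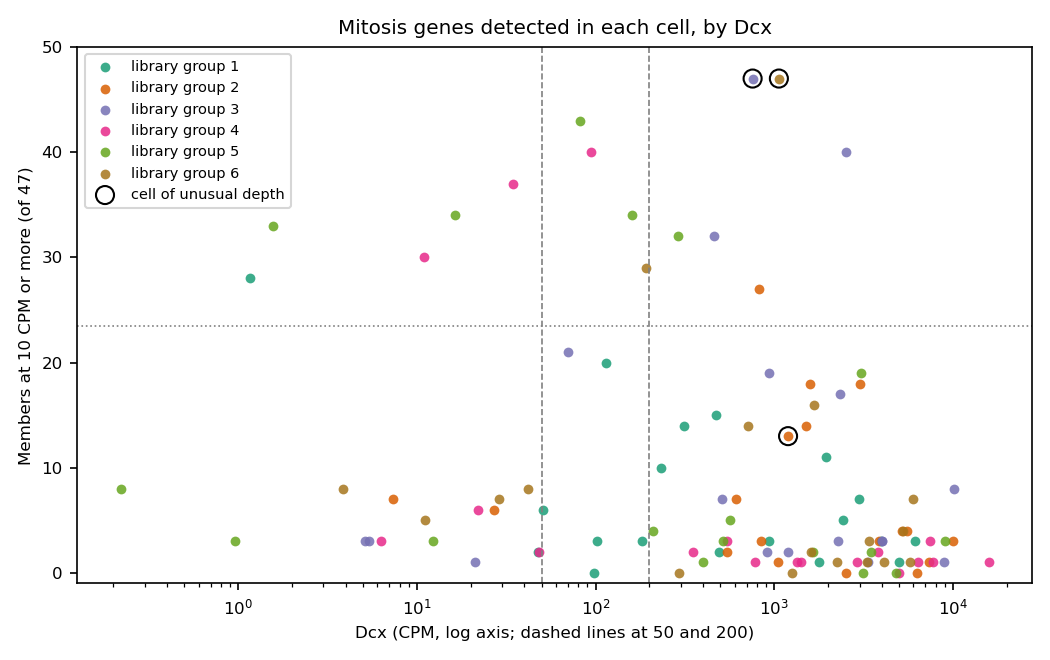
Number of the 47 members at 10 CPM or more in each cell (vertical axis) against Dcx in CPM (horizontal axis, log scale). Points are cells colored by library group, circles mark the 3 cells of unusual depth, dashed lines mark 50 and 200 CPM, and the dotted line separates cells with at least 24 members, of which there were 5 Dcx-low, 4 Dcx-middle and 6 Dcx-high.

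Over the 109 cells the number of members went with the number of other mitosis genes at 10 CPM, a list of 77 further genes (Pearson's r = 0.943, Spearman's rho = 0.815). It followed 23 S phase genes less closely (0.577 and 0.665) and the number of genes detected (0.62 and 0.527). The relation with log2 of the total counts was weak (0.137 and 0.108) and that with Dcx was negative (-0.273 and -0.391). Cells share libraries and depth, so that these values are a description. The 15 cells with at least 24 members had 22 to 73 of the 77 other mitosis genes at 10 CPM. In 12 of these 15 cells 0 to 3 of 8 astroglial genes were at 10 CPM, and in the other 3 cells 7 or 8 were.

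**Figure D3:**
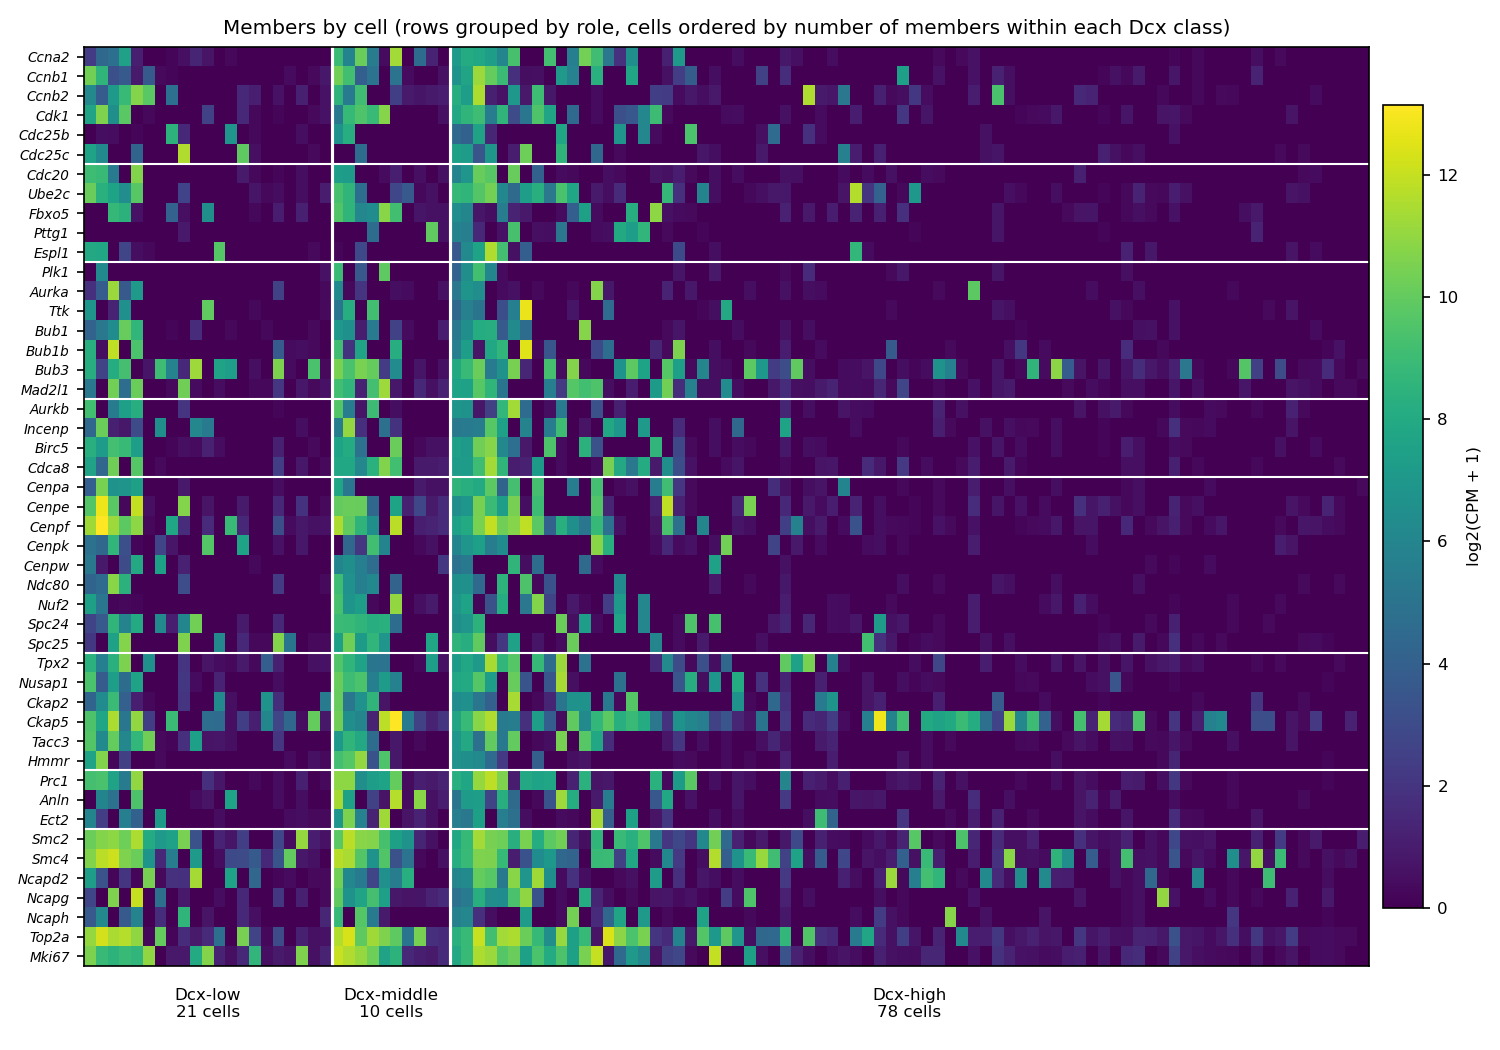
Level of each member in each cell as log2(CPM + 1), shown by color. Members are grouped by role from top to bottom, and cells are grouped by Dcx class and ordered by their number of members. In the leftmost cells of each class most members are high together, while Ckap5, Smc4, Bub3 and Top2a are also high in cells with few other members.

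Members were present together within cells. Co-detection of a pair was measured by phi, the correlation of presence at 10 CPM over the 109 cells, which is 1 when both genes are always present in the same cells and 0 when they are unrelated. Phi was above 0 for all 1081 pairs, ranged from 0.033 to 0.84 and had a median of 0.431. The closest pair was Plk1, the kinase of mitotic entry and exit, and Hmmr, a spindle protein, which were both present in 8 cells of 11 that had either (phi 0.84). It was followed by Bub1, a checkpoint kinase, with Tacc3, a microtubule protein (15 of 21 cells, 0.808), Bub1 with Aurkb (12 of 17, 0.807) and Bub1 with Birc5 (14 of 20, 0.793). Ndc80 and Nuf2, partners in the outer kinetochore complex that grips microtubules, were close as well (phi 0.757). At the other end were Pttg1 with Ncapd2 (3 of 37 cells, 0.033) and Cdc25c with Bub3 (6 of 47, 0.057).

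Phi was lower for members with genes outside the list. Its median was 0.323 for pairs of a member with 77 other mitosis genes, 0.232 with 11 cohesin genes, 0.225 with 23 S phase genes and 0.22 with 5 GCP markers. With 6 granule lineage genes it was 0.102 and with 5 GC markers 0.003. Phi cannot come near 1 for 2 genes present in very different numbers of cells. The median member was present in 19 cells, whereas Neurod1 was in 77 and Sema6a in 75 of 78 Dcx-high cells. Low values with such widely present genes, or for widely present members such as Ckap5, therefore do not show that genes are unrelated. With 8 astroglial genes the median was 0.18, and with 7 vascular and microglial genes, of which none was at 10 CPM in a Dcx-low cell, it was 0.28. Without the 3 cells of unusual depth the last 2 fell to 0.078 and 0.11, and the median with other mitosis genes to 0.254. The medians with cohesin genes, S phase genes and GCP markers fell to 0.198, 0.165 and 0.173. Those with granule lineage genes and GC markers fell to 0.086 and -0.023. The exclusion of these cells was chosen after seeing the data for these lists. The 2 cells of unusual depth with all 47 members had 6 and 7 of the vascular and microglial genes at 10 CPM. Without the 3 cells of unusual depth the median over member pairs was 0.378, and 13 pairs were below 0. Within Dcx-low cells alone it was 0.411, within Dcx-middle 0.535 and within Dcx-high 0.416 (21, 10 and 78 cells), with 99, 50 and 2 pairs below 0. Counting every gene with at least 1 count as present gave a median of 0.207, with 25 pairs below 0.

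Individual members differed in how much they told of the others. In cells that had a given member, the median number of the other 46 members ran from 6.5 for Ckap5, a microtubule polymerase, to 36 for Plk1 and Hmmr. In cells without it the median was 2 or 3 for every member. Ckap5 was present in 56 cells, Smc4 in 48, Top2a in 44, Bub3 in 39 and Smc2 in 37, whereas Plk1 was present in 8, Pttg1 in 9 and Espl1 in 10. The median member was present in 19 cells. CPM are not divided by gene length, so that these numbers do not rank the levels of different genes. By role, the median phi within the group was 0.498 for spindle microtubule genes, 0.497 for the chromosomal passenger complex and 0.45 for the centromere and kinetochore. It was 0.246 for the 5 genes of the anaphase-promoting complex and separation, below their 0.404 with members of other roles.

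**Figure D4:**
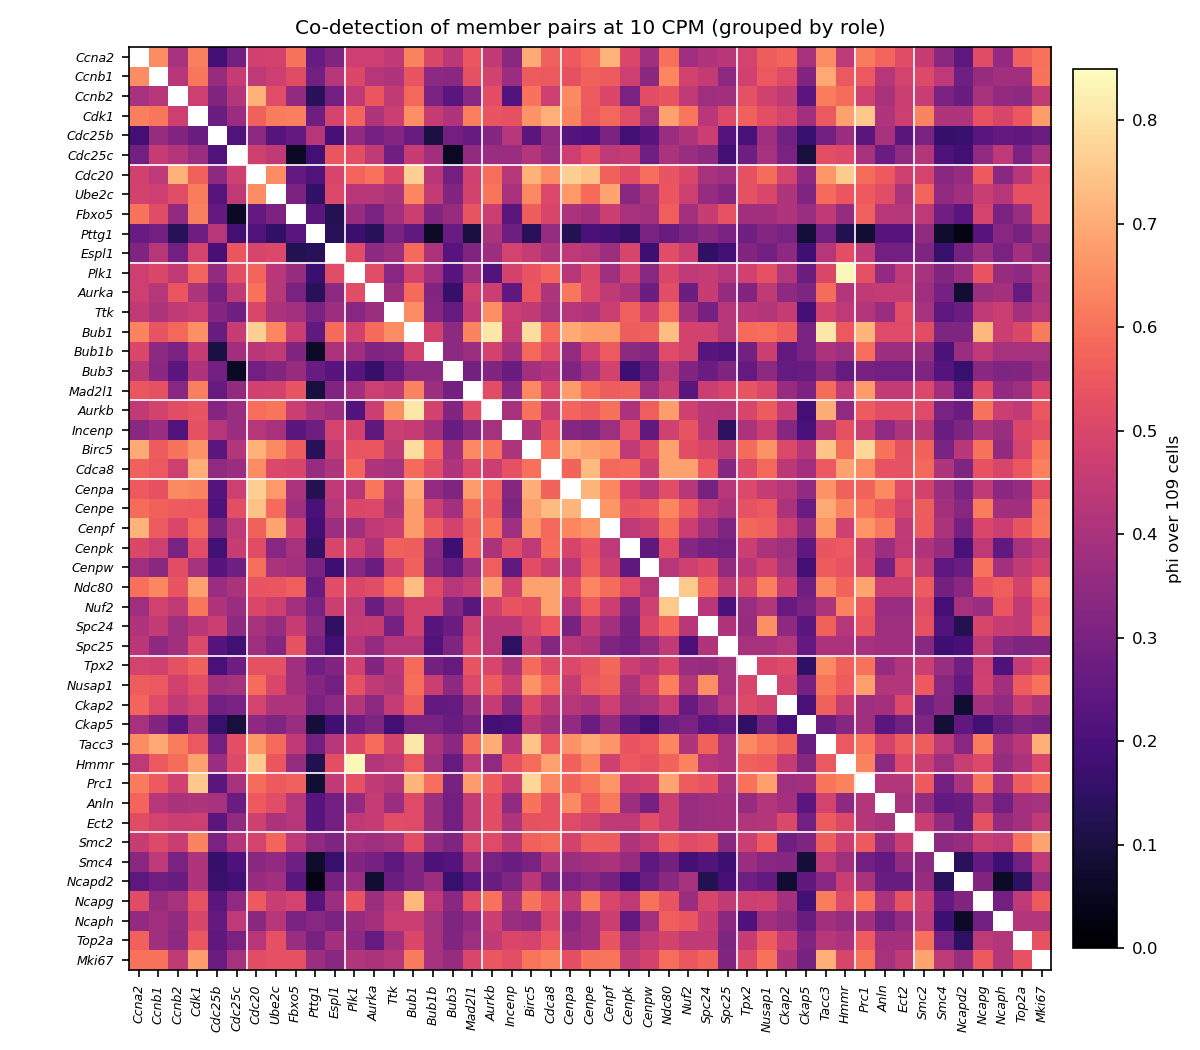
Phi of each pair of members over 109 cells, by color from 0 to 0.85, with members grouped by role and the diagonal left blank. Bub1, Birc5, Tacc3 and Ndc80 form bright rows, and Pttg1, Cdc25b, Ckap5, Smc4 and Ncapd2 form dark ones; the highest value, 0.84, is Plk1 with Hmmr.

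Outside the list, the genes most like the mean log2(CPM + 1) of the members, among 6930 genes at 10 CPM in at least 10 cells, were Cdca3 (Pearson's r = 0.81 over 109 cells) and Kif11, the spindle motor Eg5 (0.769). They were followed by Gas2l3 (0.759), Pbk (0.756), Spag5 (0.747), Esco2 (0.743), Kif22 (0.743), Cdca2 (0.735), Iqgap3 (0.726) and Ckap2l (0.724). Cdca3, Kif11, Pbk, Kif22 and Cdca2 were on the list of other mitosis genes.

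Next, Dcx-low and Dcx-high cells were compared, to see whether mitosis genes were higher in cells with little of this sign of differentiation. No cell was at 0 for Dcx, and 12 of the 21 Dcx-low cells had 10 CPM or more. Within a library group the counts of all Dcx-low cells were added up, and likewise those of all Dcx-high cells, which gave 6 sums of 2 to 5 Dcx-low cells and 6 sums of 11 to 16 Dcx-high cells. No member passed the test. With edgeR's quasi-likelihood test, 0 of the 44 members that passed the filter on low counts had an adjusted p under 0.01, as had 0.0% of the 8197 genes tested. At an unadjusted p under 0.05 there was 1 member, Smc2, against 9.17% of all genes tested. This number ran from 0 without library group 1, where 8.97% of genes had such a p, to 7 without library group 3, where 7.63% had. DESeq2 on the same sums called 1 member, also Smc2, against 4.4% of 6948 genes. The fitted biological variation between sums was large, at 183%. The p-values measure only the spread between library groups, which may be technical. Within such sums, fewer cells with a gene and less RNA per cell cannot be told apart, and shares of cells are given separately below.

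The direction of the members was uneven over library groups. In the edgeR fit 39 of the 44 members were higher and 5 lower in Dcx-low cells, while 54.7% of all genes tested were higher. Their median log2 fold change (Dcx-low minus Dcx-high) was 1.51 against 0.22 for all genes tested, and 0.83 without library group 1. With the library group as a block both medians fell, to -0.43 and -2.44. In that fit 19 members were higher and 25 lower, while 20.9% of all genes tested were higher. Relative to all genes, the median of the members in single library groups was 3.24, -1.56, -3.62, 5.62, 2.87 and -2.70 (mean 0.64 ± 3.76 SD, n = 6), so that 3 groups were above 0 and 3 below. Library group 1 carried several fold changes of single members. Without it that of Ube2c was -0.25, of Cdca8 0.92, of Ckap5 0.25, of Prc1 -0.88, of Anln -1.72 and of Smc2 1.47. No member was higher in Dcx-low sums in all 6 groups, against 0.317% of the genes tested and 0.207% of all genes listed. In 8 members, Cdc25c, Mad2l1, Cenpe, Cenpf, Spc24, Ckap5, Smc2 and Mki67, the Dcx-low sum was higher in 4 or more groups, which 9.49% of the genes tested showed. The median member was higher in 3 groups, and Pttg1, Nuf2 and Tpx2 were lower in 5 or 6. On the mean of log2(CPM + 1) over cells 39 of 47 members were higher in Dcx-low cells on average, against 42.4% of all genes, and none was higher in all 6 groups, against 0.952% of the genes tested.

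As a share of cells at 10 CPM, 42 of 47 members were more often present in Dcx-low than in Dcx-high cells, and Ccna2, Cdc25b, Pttg1, Plk1 and Ncapd2 were less often so. The share was higher in Dcx-middle than in Dcx-low cells for 42 members and higher than in Dcx-high cells for 45. The Dcx-middle class held 10 cells, 5 of them from library group 1, and these shares were not tested. The median number of genes detected was 4316 in Dcx-low, 5093.5 in Dcx-middle and 4287.5 in Dcx-high cells. The same shares over all genes are not given here, so that these counts are not set against a background. How far the higher shares in Dcx-middle cells go with more genes detected was not tested. The summed level of 8 astroglial genes per cell had a median of 209 CPM (range 0.321 to 26240.0) in Dcx-low and 50.6 CPM (0.116 to 37280.0) in Dcx-high cells. Gfap and Apoe were at 10 CPM in no Dcx-low cell, while Sox9 was in 13. The part of these genes in the comparison was not tested, and without the cells with astroglial genes the median of the members was 1.28 above that of all genes. It was 1.37 above without the cells with oligodendrocyte lineage genes, an alternative added after seeing the data.

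**Figure D5:**
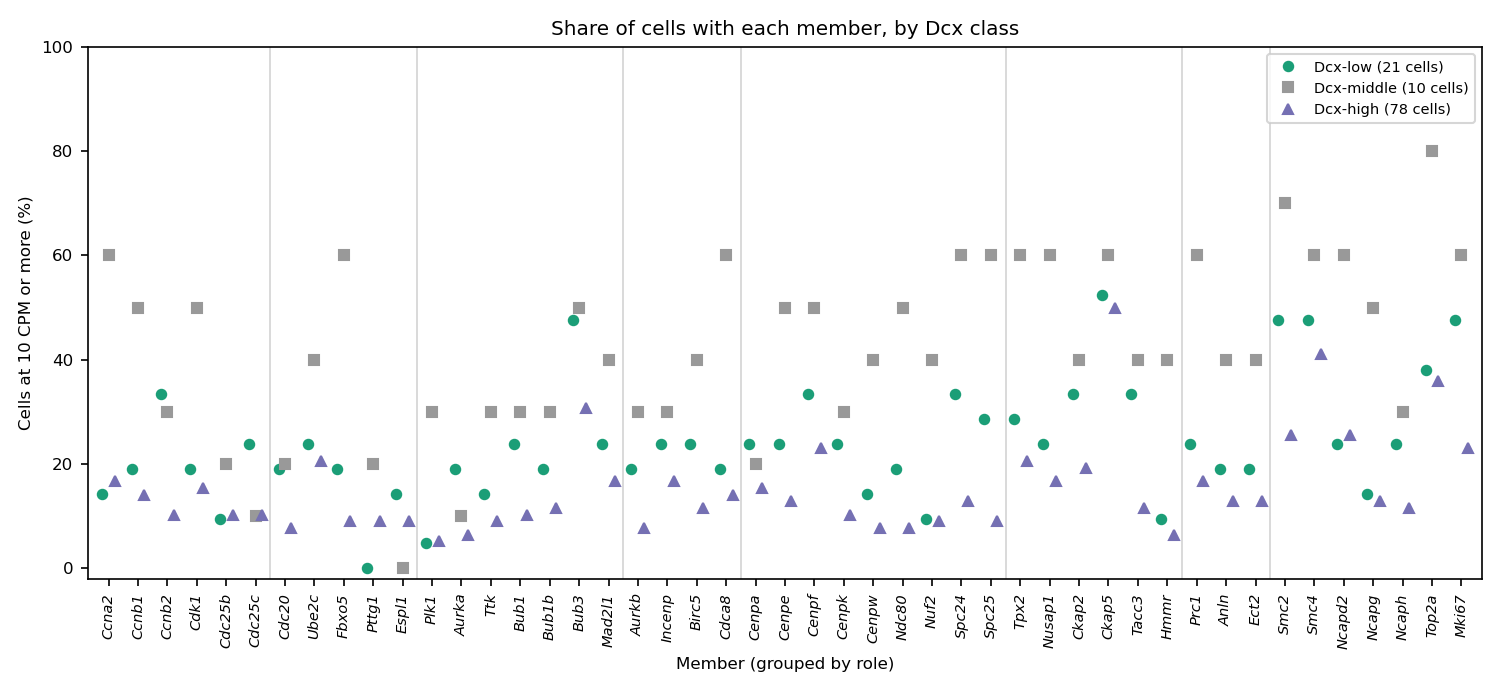
Share of cells (percent) with each member at 10 CPM or more in Dcx-low (green circles, 21 cells), Dcx-middle (grey squares, 10 cells) and Dcx-high cells (purple triangles, 78 cells), with members grouped by role. The squares are highest for most members, and green circles lie above purple triangles for 42 of 47.

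Among the cyclins, Cdk1 and its regulators, 5 of 6 genes were higher and 1 lower in Dcx-low cells in the edgeR fit. None passed the test (median log2 fold change 0.75). Here and below, higher and lower for the genes of a role give the sign of this fitted change, not of each library group. Ccna2, cyclin A2, was present in 22 cells, 3 of them Dcx-low, 6 Dcx-middle and 13 Dcx-high. Its Dcx-low sums ran from 0 over a median of 0.648 to 42.65 CPM, and its Dcx-high sums from 0.0364 over 56.9 to 170 CPM. They overlapped, and 4 of 6 groups were lower in Dcx-low cells (log2 fold change -2.26, SE 1.84, edgeR adjusted p = 0.752). Ccnb1, cyclin B1, hardly differed in the fit (0.01, SE 1.91, adjusted p = 0.999). Only library groups 4 and 5 had Dcx-low sums above 1 CPM for it (328 and 48.2 CPM). Cdc25c, a phosphatase that activates Cdk1, had the largest fold change of the role and was higher in 5 of 6 groups (4.39, SE 2.17, adjusted p = 0.567). Its Dcx-low sums were 12.1, 1801, 116, 48.5, 8.53 and 0 CPM in library groups 1 to 6, and the highest, group 2, came from 1 of its 2 cells, with 3012 CPM beside 0 in the other. Without library group 2 its fold change was 1.85. On the mean of log2(CPM + 1) the difference was 1.62 ± 1.63 (SD, n = 6 groups; exact two-sided sign-flip test, p = 0.0625, where 0.031 is the smallest p possible). Exosc9 overlaps Ccna2, Spef1 overlaps Cdc25b and Gm3550 overlaps Cdc25c, each on the other strand. Ccnb1 and Ccnb2 have a pseudogene (Ccnb1-ps, Ccnb2-ps). Some reads of these members are therefore uncertain.

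In the anaphase-promoting complex and separation, 3 of the 4 genes tested were higher and 1 lower, and none passed (median 0.86). Ube2c was present in 25 cells. Its Dcx-low sums ran from 0 over 46.2 to 574 CPM and its Dcx-high sums from 14.2 over 53.7 to 259.5 CPM, and 3 groups were higher and 3 lower (log2 fold change 1.36, SE 1.63, edgeR adjusted p = 0.833). Cdc20, the activator that the checkpoint blocks, had Dcx-low sums of 1074 CPM in group 1, 130 CPM in group 4 and 62.8 CPM in group 5, and under 1 CPM in the other groups (3.33, SE 2.17, adjusted p = 0.678). Without library group 1 its fold change was 0.07. Its Dcx-high sums reached from 0.0364 to 196.5 CPM. Espl1, separase, did not move in the fit (-0.03, SE 2.16, adjusted p = 0.998). Pttg1, securin, which holds separase inactive, was the only member lower in Dcx-low sums in all 6 groups, as 6.16% of all genes were. It had 2 counts in all Dcx-low cells and 3895 in Dcx-high cells, which were more cells with larger totals. The Dcx-high sums ran from 0.0182 over 4.13 to 53.5 CPM. In groups 1, 4 and 5 they were only 0.0871, 0.0182 and 0.0904 CPM, beside 0 in Dcx-low sums, so that these groups differed by very few counts. Pttg1 did not pass the filter on low counts. On the mean of log2(CPM + 1) it was lower by -0.58 ± 0.63 (SD, n = 6 groups), and the exact two-sided sign-flip test gave its smallest possible p, 0.031, in 1 of 47 members, without adjustment. On that measure 3.52% of all genes were lower in all 6 groups. Elovl1 overlaps Cdc20 and Tnnc2 overlaps Ube2c, both on the other strand.

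All 6 spindle checkpoint and kinase genes tested were higher in the fit, with a median of 2.13, and none passed. The Dcx-low sums of Aurka and Ttk were nevertheless lower in 4 of 6 groups. Bub3, a checkpoint protein that binds kinetochores, was present in 10 Dcx-low, 5 Dcx-middle and 24 Dcx-high cells. Its Dcx-low sums were at most 1.03 CPM in groups 1 to 3 and 366 to 578 CPM in groups 4 to 6. Its Dcx-high sums, from 29.6 over 170 to 354 CPM, lay between them (log2 fold change 0.84, SE 1.53, edgeR adjusted p = 0.892). Mad2l1, the MAD2 protein of the checkpoint, had Dcx-low sums of 798, 743 and 345 CPM in groups 1, 2 and 5, and of at most 14.97 CPM in the others. It was the only member that was higher in all 6 groups when the Dcx-middle cells were added to the Dcx-low cells, as 0.426% of all genes were. Plk1 did not pass the filter and was present in 1 Dcx-low, 3 Dcx-middle and 4 Dcx-high cells.

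The 4 genes of the chromosomal passenger complex, which corrects wrong attachments, were all higher in the fit, with a median of 1.33, and none passed. The Dcx-low sums of Aurkb were nevertheless lower in 4 of 6 groups. Incenp, its scaffold, was present in 21 cells, with Dcx-low sums from 0 over 11.1 to 132 CPM and Dcx-high sums from 0.382 over 25.2 to 54.5 CPM (0.72, SE 1.64, edgeR adjusted p = 0.919). Cdca8, borealin, was also present in 21 cells, among them 6 of the 10 Dcx-middle cells. Its Dcx-low sums were 549 CPM in group 1, 46.9 CPM in group 4 and 341 CPM in group 5 and at most 0.111 CPM in the others (2.0, SE 1.87, adjusted p = 0.785). Aurkb, the kinase of the complex, and Birc5, survivin, were present in 13 and 18 cells.

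Of the 9 centromere and kinetochore genes 8 were higher and 1 lower, and none passed, although their median of 2.60 was the highest of the 8 roles. Cenpf was present in 7 Dcx-low, 5 Dcx-middle and 18 Dcx-high cells. Its Dcx-low sums ran from 0.443 over 498 to 1659 CPM, and its Dcx-high sums from 0.382 over 113 to 600.2 CPM, so that the ranges overlapped with 4 groups higher (2.60, SE 1.45, edgeR adjusted p = 0.621). Cenpe, the kinetochore motor, had Dcx-low sums of 2638, 992.5, 191 and 1047 CPM in groups 1, 2, 4 and 5 and under 1 CPM in groups 3 and 6 (2.94, SE 1.68, adjusted p = 0.631). Nuf2 was lower in 5 of 6 groups, with Dcx-low sums from 0 over 0.0651 to 43.8 CPM and Dcx-high sums from 0.0182 over 15.4 to 193 CPM (-2.15, SE 2.13, adjusted p = 0.797). Cenpa, the histone variant that marks centromeres, was present in 19 cells and changed least in its role (0.47, SE 1.89, adjusted p = 0.955).

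Among the 5 spindle microtubule genes tested, 4 were higher and 1 lower, with a median of 0.26, near that of all genes. Ckap5 was the most widely present member, in 11 of 21 Dcx-low, 6 of 10 Dcx-middle and 39 of 78 Dcx-high cells. Its Dcx-low sums ran from 1.44 over 291 to 1394 CPM and its Dcx-high sums from 59.2 over 155 to 1066 CPM (1.40, SE 1.20, edgeR adjusted p = 0.761), but the mean difference on log2(CPM + 1) over cells was -0.21. Tpx2, which activates Aurora A on the spindle, was lower in 5 of 6 groups. Only groups 4 and 5 had Dcx-low sums above 2.06 CPM, at 426 and 113 CPM, and the fitted change was -0.01 (SE 1.81, adjusted p = 0.999).

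The 3 genes of the midzone and cytokinesis were mixed. Prc1, which bundles midzone microtubules, was present in 24 cells, 6 of them among the 10 Dcx-middle cells. Its Dcx-low sum was 1407 CPM in group 1, 164 CPM in group 4 and 125 CPM in group 5 and at most 1.03 CPM in the others, beside Dcx-high sums from 0.491 over 94.7 to 527 CPM (1.93, SE 1.79, edgeR adjusted p = 0.78). Anln, anillin, followed group 1 in the same way, with 482 CPM there and at most 46.8 CPM elsewhere (1.82, SE 2.01, adjusted p = 0.816). Ect2, which activates RhoA for the contractile ring, was lower in 4 of 6 groups (-2.05, SE 1.89, adjusted p = 0.779). Its highest Dcx-high sum, 303 CPM in group 1, stood above the highest Dcx-low sum of 29.4 CPM, and its mean difference on log2(CPM + 1) over cells was 0.15.

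All 7 condensin and mitotic chromosome genes were higher in the fit, with a median of 1.60, and again none passed. The Dcx-low sums of Ncapd2 and Ncapg were nevertheless lower in 4 of 6 groups. Smc2, a core subunit of condensin, was present in 10 of 21 Dcx-low, 7 of 10 Dcx-middle and 20 of 78 Dcx-high cells (47.6%, 70.0% and 25.6%). Its Dcx-low sums were 2642, 863, 0.776, 565.5, 770.4 and 98.0 CPM in groups 1 to 6, and its Dcx-high sums ran from 40.0 over 133 to 580 CPM. They were higher in 4 groups and lower in groups 3 and 6 (2.87, SE 1.15, edgeR adjusted p = 0.416). DESeq2 gave an adjusted p of 0.00833, and over all alternatives it ranged from 0.00833 to 0.774. On the mean of log2(CPM + 1) the difference was 2.86 ± 4.11 (SD, n = 6 groups; exact two-sided sign-flip test, p = 0.156). Smc4, its partner, had Dcx-low sums from 0 over 399.9 to 1767 CPM and Dcx-high sums from 26.6 over 131.5 to 608 CPM (2.05, SE 1.36, adjusted p = 0.683). Ncaph, a condensin I subunit, changed least (0.21, SE 1.81, adjusted p = 0.982).

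Top2a was present in 8 of 21 Dcx-low, 8 of 10 Dcx-middle and 28 of 78 Dcx-high cells. Its Dcx-low sums ran from 2.06 over 750.1 to 1332 CPM and its Dcx-high sums from 1.51 over 384 to 712 CPM (1.60, SE 1.14, edgeR adjusted p = 0.705). Mki67, the Ki-67 protein that coats mitotic chromosomes and marks cycling cells, was present in 10 of 21 Dcx-low, 6 of 10 Dcx-middle and 18 of 78 Dcx-high cells. Its Dcx-low sums ran from 45.6 over 525 to 767 CPM and its Dcx-high sums from 0.909 over 184 to 754 CPM, with 4 groups higher (1.49, SE 1.07, adjusted p = 0.707). On the mean of log2(CPM + 1) the difference was 2.81 ± 3.19 (SD, n = 6 groups; exact two-sided sign-flip test, p = 0.0938). In the 15 cells with at least 24 members Mki67 ranged from 240.5 to 4258 CPM. Its 2 promoter matches to TTTGAA lay at -113 and -95, farther from the start than the matches in the stretches printed above.

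A list of other mitosis genes was read in the same way. Of 68 tested on the list of 77, 54 were higher and 14 lower in the edgeR fit. The median log2 fold change was 1.27, and none was called. The 5 with the smallest p were Fzr1, an activator of the anaphase-promoting complex that also acts outside mitosis, (-7.05, SE 1.85, edgeR adjusted p = 0.142), Cdc16, a subunit of that complex (-4.0, SE 1.64, 0.438), Ccnf (-4.39, SE 1.88, 0.47), Ncapg2 (4.73, SE 2.05, 0.48) and Kif14 (-4.11, SE 1.85, 0.506). The Dcx-low sums of Fzr1 ran from 0.0469 to 1.77 CPM and its Dcx-high sums from 6.76 to 434 CPM. Fzr1 was 1 of 3 genes of this list that were lower in Dcx-low sums in all 6 groups, as 6.16% of all genes were. At 10 CPM it was present in 0 of 21 Dcx-low and 15 of 78 Dcx-high cells. Of 22 S phase genes tested 21 were higher, with a median of 1.97, and of 11 cohesin genes 9 were higher, with a median of 0.78. None of either list was called.

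The study asked how GCPs with Notch2, a receptor of Notch signaling, differ from those without it. Here the question was put to the members within Dcx-low cells, which are another set than the GCP cluster compared in the study. Of these cells, 9 in 4 library groups had at least 1 Notch2 count and 12 in 5 library groups had none. The Dcx-low cell with astroglial genes was Notch2-positive, and those with oligodendrocyte lineage genes were Notch2-negative. The comparison was not run without them. At least 24 members were present in 3 of the 9 Notch2-positive and in 2 of the 12 Notch2-negative cells. The number of members ran from 1 over a median of 8 to 37 in Notch2-positive cells, and from 2 over 6 to 34 in Notch2-negative cells, so that the ranges overlapped nearly throughout. With edgeR on sums per library group 0 of 26 members tested had an adjusted p under 0.01, as had 0.0% of 4224 genes tested. At an unadjusted p under 0.05 there were 0 members and 237 genes (5.61%), and DESeq2 called 0 members and 84 genes. With the library group as a block, 3 members (Top2a, Cenpf and Cenpe) had an unadjusted p under 0.05, against 1.61% of genes, and with DESeq2 3 had, against 11.5%. The median log2 fold change of the members was 0.55, against 0.04 for all genes, and it rested on single library groups. It was -0.10 (all genes -0.15) without group 1, -0.04 (0.07) without group 4, 0.02 (0.21) without group 5 and 1.43 (0.01) without group 3. Top2a was at 10 CPM in 5 of the 9 and 3 of the 12 cells (2.18, adjusted p = 0.929), and Mki67 in 4 and 6 (0.12, adjusted p = 0.998). The classes differed in their library groups: both Dcx-low cells of group 1 were Notch2-positive, and both of group 2 and all 5 of group 5 were Notch2-negative. Only library groups 3, 4 and 6 held both classes, with 1 to 3 cells in each sum. The fit with the library group as a block took its difference from these groups alone.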

How the data were processed

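Single-cell RNA was measured by Smart-seq in 109 cells of the P7 GCP preparation. Reads had been mapped by the authors with STAR 2.4.1d on mm10 and assigned to genes with HTSeq 0.6.1. The deposited values are raw read counts per gene and cell that were not normalized. Annotation and strand setting are not given in the sources used here, so that reads of genes overlapping on opposite strands cannot be told apart. Beside the members named above with such an overlap, Plk1, Cdca8, Cenpk, Nusap1, Tacc3, Prc1 and Ncapg have one. Columns were matched to samples by their titles, which also give the 6 library groups. Whether these are the batches of the study was not stated.

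CPM were counts per 1000000 counts of a cell. Classes were set at Dcx of 50 and 200 CPM. Counts were summed per class and library group, and totals per sum ran from 3886167 to 54987586. Sums were normalized by TMM, filtered with filterByExpr and compared with the edgeR 4.0.16 quasi-likelihood test in R 4.3.3, with Benjamini-Hochberg adjustment over all genes tested and a threshold of 0.01 as in the study. Members per cell and phi were computed in Python 3.11.15, with Wilson intervals. Single members were compared by exact sign-flip tests over library groups. Alternatives were DESeq2 1.42.0, its size factors, no filter, a library-group block, other Dcx thresholds, a threshold of 0.05, other detection levels, counts thinned to 1000000 per cell (1 shallower cell left out), cells left out and each library group left out. Gene positions and overlaps came from GENCODE vM21 (GRCm38) and promoters from RefSeq (GRCm38.p6).

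The members, lists and tests were chosen with earlier results of these data known. Within each role the text gives full values for members with the most cells at 10 CPM, those below 0 or least changed in the fit, and those singled out for a fold change or a test. All cells were kept unless stated. No doublet calling was done.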

Additional observations from a re-analysis of the deposited data

Results flagged for a closer look

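The sums per class were examined for single library groups far from the rest, on log2(CPM + 1), in 46 sets of 6 library groups (23 members in 2 classes), and 5 stood apart by Dixon's criterion at 95%. Chance alone marks about 1 set in 20. In library group 4 the Dcx-high sums were lowest for Top2a (1.33, next 7.81), Mki67 (0.93, next 6.89), Tpx2 (0.45, next 5.58) and Cenpa (0.03, next 5.02). The 12 Dcx-high cells of this group had at most 3 members at 10 CPM each. In library group 2 the Dcx-low sum of Top2a was the lowest (1.61, next 7.47), and this sum held 2 cells.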

How the results depend on the processing

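No member passed the threshold of 0.01 for Dcx under any edgeR alternative, and at 0.05 none did either. DESeq2 on the sums called 1 member (Smc2, log2 fold change 3.74) and 306 genes, and in the Notch2 comparison 84 genes and 0 members. Leaving out 1 library group at a time gave 0 members for Dcx, and 0 to 1 genes for Notch2 (1 without library group 6). Cells of the same library group share a label in the sample titles, but their Dcx-low and Dcx-high sums hardly deviated together (correlations 0.018 to 0.051 over 8197 genes), although 5 of 6 correlated best with their own group. The replicate block called 0 members and 0 genes and moved the members' median to -0.43 and that of all genes to -2.44. In the Notch2 comparison, where only library groups 3, 4 and 6 held both classes, the block moved these medians to 3.89 and 1.45, again with 0 calls. Relative to all genes, the members' median was 1.29 and stayed above 0 under each alternative (0.70 without library group 1 to 2.31 at Dcx 500 against under 10 CPM). DESeq2 size factors moved the median of all genes from 0.22 to 0.73. With all cells under 200 CPM Dcx in place of Dcx-low cells, 1 member (Mad2l1) was higher in all 6 groups.

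Counting a member as present from 1 count on gave 8 Dcx-low, 8 Dcx-middle and 24 Dcx-high cells with at least 24 members, and medians of 20 and 18 members in Dcx-low and Dcx-high cells. After thinning to 1000000 counts, 5, 4 and 6 cells had at least 24 members, as at full depth. The median phi was 0.431, 0.207 from 1 count on, 0.378 without cells of unusual depth, 0.373 without cells with astroglial genes and 0.398 to 0.479 without single library groups; the last 2 were chosen after seeing the data.

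Of 338 fold changes of 23 members under alternatives, 46 changed sign, in 15 members; the cause was not tested. With the replicate block these were Ccnb1 (-5.21), Cdc20 (-0.47), Ube2c (-2.01), Bub3 (-2.74), Cdca8 (-2.05), Cenpa (-2.49), Prc1 (-1.51) and Anln (-1.61), all above the median of all genes in that fit except Ccnb1, Bub3 and Cenpa. With cells under 200 CPM Dcx they were Ccna2 (1.04), Cenpa (-0.44), Nuf2 (0.91), Tpx2 (0.18) and Ect2 (2.05), and at 500 against under 10 CPM Ccnb1 (-4.82), Bub3 (-0.44) and Ect2 (0.50). Without a filter they were Ccnb1 (-0.11) and Ncaph (-0.05), without cells of unusual depth Ccnb1 (-0.24), without cells with astroglial genes Ccnb1 (-0.21) and Ncaph (-0.18), without cells with oligodendrocyte lineage genes Tpx2 (0.39) and Ncaph (-0.06), and with DESeq2 or its size factors Espl1 (0.10) and Tpx2 (0.17). Without single library groups the ranges were -1.72 to 3.05 (Anln), -2.79 to 1.92 (Ccnb1), 0.07 to 5.22 (Cdc20), -0.22 to 1.0 (Cenpa), -2.79 to 0.50 (Ect2), -2.78 to 1.46 (Espl1), -0.70 to 1.24 (Incenp), -1.64 to 1.16 (Ncaph), -5.48 to 0.02 (Nuf2), -0.88 to 3.12 (Prc1), -2.12 to 0.48 (Tpx2) and -0.25 to 2.06 (Ube2c). On the strand of the gene alone CCAAT lay in 20 of 40 members (23.7% of all genes) and TTTGAA in 20 (11.6%).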
